A study of Mus musculus with 6 samples.

Results

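Immediate early genes are the transcripts that cells switch on within minutes of a stimulus, without waiting for new protein. Their promoters are held ready by the serum response factor and its Ets partners, by CREB and by kinase cascades such as ERK, and most of their mRNAs decay quickly. Many encode transcription factors, so the family reports light, hormones, injury and the handling of tissue before RNA is fixed. The 10 genes described here are the AP-1 subunits Fos, Fosb, Jun and Junb, the AP-1 relative Atf3, the zinc finger factors Egr1 and Egr2, the nuclear receptor Nr4a1, the growth response gene Ier2 and the synaptic gene Arc. They were chosen by symbol from 22180 measured genes. All 10 were found, each with 1 probe set named by a single symbol, and no filter on low signal was applied.

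RNA came from the outer wall of the eye, dissected as 1 complex of the retinal pigment epithelium (RPE), the vascular choroid and the fibrous sclera. The 5XFAD group consisted of 3 samples from heterozygous transgenic mice aged 12 months, and the control group of 3 samples from non-transgenic wild-type littermates of the same age. Neither group was treated. The 5XFAD line expresses mutant human amyloid precursor protein and presenilin from a neuronal Thy1 promoter, so the transgenes are aimed at neurons rather than at the layers sampled here. Each sample was hybridised to 1 Affymetrix whole-transcript array, so precision is limited by how few arrays there are. The labels do not say whether each sample is a separate animal, nor how long the tissue was handled, so the spread between samples may be technical in part. All values are log2 intensities, and a difference is 5XFAD minus wild type.

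The sequence just upstream of the transcription start is shown for 3 members: Fos, the prototype of the family, Nr4a1, whose groups did not overlap, and Atf3, the member with the most positive difference. The windows hold the 250 bases before the RefSeq start in the GRCm38.p6 assembly, 5′ to 3′ on the gene's strand. Capitals mark matches to the motifs searched, on either strand. Fos lies at chr12:85473640-85473889 on the plus strand, Nr4a1 at chr15:101266596-101266845 on the plus strand and Atf3 at chr1:191183334-191183583 on the minus strand. For Egr2, a stretch of 30 bases around a CArG box, the binding motif of serum response factor, is given from chr10:67537787-67537816 on the plus strand.
Fos: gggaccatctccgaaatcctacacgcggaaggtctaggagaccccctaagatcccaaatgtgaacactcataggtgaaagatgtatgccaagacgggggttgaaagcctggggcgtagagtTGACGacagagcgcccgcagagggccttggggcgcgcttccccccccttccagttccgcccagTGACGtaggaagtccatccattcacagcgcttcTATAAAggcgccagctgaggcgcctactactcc
Nr4a1: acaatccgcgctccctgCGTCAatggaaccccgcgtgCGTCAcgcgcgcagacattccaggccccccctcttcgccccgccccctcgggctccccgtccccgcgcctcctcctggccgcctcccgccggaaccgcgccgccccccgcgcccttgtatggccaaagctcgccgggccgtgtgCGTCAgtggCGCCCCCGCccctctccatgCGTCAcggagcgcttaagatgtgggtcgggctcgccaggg
Atf3: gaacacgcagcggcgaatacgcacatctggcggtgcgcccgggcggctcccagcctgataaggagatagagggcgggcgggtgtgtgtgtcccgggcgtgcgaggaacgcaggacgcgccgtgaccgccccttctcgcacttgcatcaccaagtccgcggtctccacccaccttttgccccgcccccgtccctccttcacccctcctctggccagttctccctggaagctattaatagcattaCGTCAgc
Egr2: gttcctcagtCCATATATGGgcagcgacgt

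RefSeq windows were matched for 7 of the 10 members, all but Egr1, Ier2 and Arc, and Egr2 had several. The core of the cyclic AMP response element, TGACG, was present in at least 1 window of 6 of these 7 genes (Fos, Fosb, Junb, Egr2, Nr4a1 and Atf3), against 17.8% of all 32851 windows of the same length. The Nr4a1 window held 4 such cores and the Fos window 2, the nearer of them 66 bases before the start, while in Atf3 the core lay 7 bases before it. The full element TGACGTCA, which contains the core, was found in 0 of the 7 genes and in 1.55% of all windows, and the AP-1 element TGANTCA in 0 of the 7 and in 6.75%. Within these 250 bases the CArG box was present in Egr2 alone, against 1.47% of all windows. The Egr2 box shown lay 72, 73 or 133 bases before the start, depending on the window. Another Egr2 window held a different CArG box, 72 bases before its own start. TATAAA was present in Fos alone (12.4% of all windows), CCAAT in Jun, Junb and Egr2 (33.8%), and the EGR element GCGNGGGCG in Fosb and Nr4a1 (4.70%). These matches describe letters within the window and not occupied sites. Sequence further upstream was not searched, so a motif missing here may lie outside the window. The shares count single windows, while Egr2 was counted over several.

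None of the 10 genes passed the test across all genes (limma, Benjamini-Hochberg adjusted p from 0.56 to 0.97), where 0.0225% of all genes passed. At an unadjusted p under 0.05 limma gave 1 member, Nr4a1, which was lower in 5XFAD, beside 6.28% of all genes in either direction. Nr4a1 was also the only member whose 3 arrays per group did not overlap, beside 11.3% of all genes. The difference was negative for 7 members and positive for 3, with a median of -0.092 that ran from -0.18 to -0.028 with each array left out (-0.18 without wild type replicate 2, -0.047 without wild type replicate 1 and -0.028 without 5XFAD replicate 2). It was negative for 52.8% of all genes, with a median of -0.0092. The 95% confidence interval lay within a 2-fold difference either way for all 10 members and within 1.5-fold for 8, the exceptions being Nr4a1 and Atf3.

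**Figure D1:**
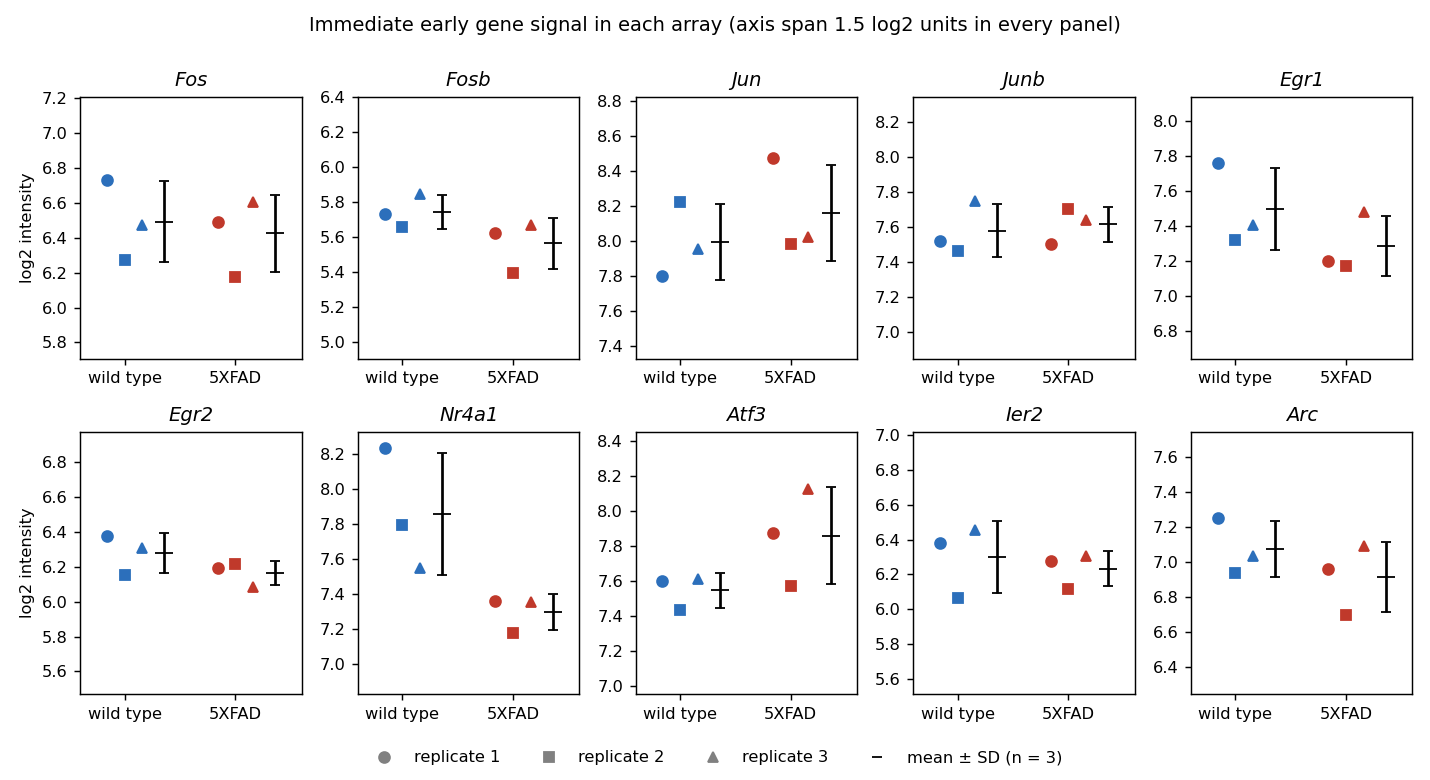
Log2 intensity of each of the 10 immediate early genes in the 6 arrays, with replicate 1 as circles, 2 as squares and 3 as triangles, wild type in blue and 5XFAD in red, and the black bar giving the mean ± SD (n = 3). The groups are apart only for Nr4a1, where the 5XFAD arrays lie between 7.18 and 7.36 and the wild-type arrays between 7.55 and 8.24.

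Nr4a1, which encodes an orphan nuclear receptor induced by growth factors, calcium and stress, had the largest difference of the family. Its signal was 7.36, 7.18 and 7.35 in 5XFAD replicates 1, 2 and 3, and 8.24, 7.79 and 7.55 in wild-type replicates 1, 2 and 3. All 5XFAD values lay below all wild-type values, and most of the spread was among the wild-type arrays. The 5XFAD mean was 7.30 ± 0.10 and the wild-type mean 7.86 ± 0.35 (± SD, n = 3 each), a 0.677-fold level with a 95% interval from 0.523 to 0.877. The difference of -0.56 ± 0.17 (± SE) did not pass over all genes (limma, unadjusted p = 0.0075, Benjamini-Hochberg adjusted p = 0.56). An unadjusted p under 0.01 with lower signal in 5XFAD was met by 0.888% of all genes. Leaving out wild type replicate 1 gave a difference of -0.37, and leaving out wild type replicate 3 gave -0.72. Its paralogs overlapped between groups: Nr4a2 differed by -0.12 ± 0.12 and Nr4a3 by -0.015 ± 0.16.

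Markers of some cell types also stood apart between the groups in which Nr4a1 did not overlap. Of 9 surface epithelium markers 4 passed over all genes, all higher in 5XFAD, beside 0.0225% of all genes. Of 12 RPE markers 0 passed and 8 were lower at an unadjusted p under 0.05 (limma), beside 3.39% of all genes. At that unadjusted p, 7 surface epithelium, 4 skeletal muscle, 3 smooth muscle and pericyte, 3 macrophage and 2 mast cell markers were higher, beside 2.89%. Photoreceptor markers gave 1 lower, and endothelium, fibroblast and Schwann cell markers gave 0. The mean of the RPE markers was 10.27 to 10.38 in the 5XFAD arrays and 10.57 to 10.73 in the wild-type arrays, and that of the surface epithelium markers was 6.35 to 7.11 against 5.24 to 5.34. Smooth muscle and pericyte markers (8 genes) lay at 9.05 to 9.44 against 8.93 to 8.97. Skeletal muscle (10 genes) lay at 6.25 to 7.57 against 5.56 to 6.99, endothelium (8 genes) at 8.79 to 9.16 against 9.01 to 9.06, and macrophage markers (8 genes) at 8.85 ± 0.16 against 8.68 ± 0.01 (mean ± SD). Fibroblast markers (8 genes) lay at 10.001 to 10.204 against 10.027 to 10.226, photoreceptor markers (7 genes) at 5.79 to 6.67 against 5.97 to 6.81, mast cell markers (6 genes) at 6.72 to 6.95 against 6.33 to 6.74, and Schwann cell markers (3 genes) at 8.07 to 8.25 against 8.18 to 8.24. In a bulk sample fewer cells of a type and less RNA per cell cannot be told apart, and the part of cell composition in the Nr4a1 difference was not tested. The RPE markers, at a median of 10.70, were bright in all 6 arrays, as the tissue label says.

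Among the AP-1 genes, Fos, whose product pairs with Jun proteins, was measured at 6.49, 6.18 and 6.61 in the 5XFAD arrays and 6.73, 6.27 and 6.47 in the wild-type arrays. The highest and the lowest values of Fos stood in opposite groups, in wild type replicate 1 and 5XFAD replicate 2. The other 4 arrays lay between them, both 5XFAD values (6.49 and 6.61) above both wild-type values (6.27 and 6.47). The difference was -0.067 ± 0.15, with a 95% interval from -0.41 to 0.27 (limma, Benjamini-Hochberg adjusted p = 0.97). Its sign was positive once 5XFAD replicate 2 (0.056) or wild type replicate 1 (0.052) was left out.

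Fosb, a close relative of Fos known for its persistent splice form in neurons, was measured at 5.62, 5.39 and 5.67 in 5XFAD and at 5.73, 5.65 and 5.85 in wild type. The groups overlapped through a single pair, 5XFAD replicate 3 and wild type replicate 2. The difference was -0.18 ± 0.11 (limma, Benjamini-Hochberg adjusted p = 0.91). The remaining Fos relative in the wider list, Fosl2, differed by 0.15 ± 0.10.

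Jun, the main partner of Fos, gave 8.48, 7.98 and 8.02 in 5XFAD and 7.80, 8.22 and 7.95 in wild type. 5XFAD replicate 1 was the highest array and wild type replicate 1 the lowest, and the difference was 0.17 ± 0.16 (limma, Benjamini-Hochberg adjusted p = 0.93). It was 0.0091 without the former and 0.070 without the latter, and up to 0.28 without wild type replicate 2. The array that was highest for Fos was thus lowest for Jun. Junb, which forms weaker activating dimers than Jun, stayed within 7.50 to 7.70 in 5XFAD and 7.46 to 7.75 in wild type, a difference of 0.039 ± 0.11 (limma, Benjamini-Hochberg adjusted p = 0.97). Jund, the constitutive member of the Jun family, differed by -0.088 ± 0.13.

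Atf3, a stress-induced repressor and activator that pairs with Jun proteins, had the most positive difference of the family. The 5XFAD arrays gave 7.88, 7.57 and 8.13, and the wild-type arrays 7.60, 7.43 and 7.61. 5XFAD replicates 1 and 3 lay above every wild-type array, while replicate 2 lay among them. The mean was 7.86 ± 0.28 against 7.55 ± 0.10, and the difference of 0.31 ± 0.14 had a 95% interval from -0.012 to 0.64 (limma, unadjusted p = 0.057, Benjamini-Hochberg adjusted p = 0.81). Leaving out 5XFAD replicate 2 gave 0.46, and leaving out 5XFAD replicate 3 gave 0.18.

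Egr1 and Egr2 encode zinc finger factors that bind GC-rich elements, and both are direct targets of serum response factor. Egr1 gave 7.20, 7.17 and 7.48 in 5XFAD and 7.76, 7.32 and 7.41 in wild type. Its wild type replicate 1 stood above the other 5 arrays, and the rest overlapped. The difference was -0.21 ± 0.14 (limma, Benjamini-Hochberg adjusted p = 0.92). Egr2 gave 6.19, 6.22 and 6.08 in 5XFAD against 6.38, 6.15 and 6.31 in wild type, and differed by -0.12 ± 0.10 (limma, Benjamini-Hochberg adjusted p = 0.93). Their paralogs Egr3 (-0.034 ± 0.14) and Egr4 (0.089 ± 0.13) overlapped between groups as well.

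Ier2 encodes a small nuclear protein of the serum response, and Arc encodes a capsid-like protein of synapses that also serves as a marker of neuronal activity. Ier2 gave 6.28, 6.12 and 6.30 in 5XFAD and 6.38, 6.07 and 6.45 in wild type, with a difference of -0.067 ± 0.13 (limma, Benjamini-Hochberg adjusted p = 0.97). Arc gave 6.96, 6.70 and 7.09 in 5XFAD and 7.25, 6.94 and 7.03 in wild type, with a difference of -0.16 ± 0.13 (limma, Benjamini-Hochberg adjusted p = 0.93). For both genes replicate 2 was the lowest array of its group.

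**Figure D2:**
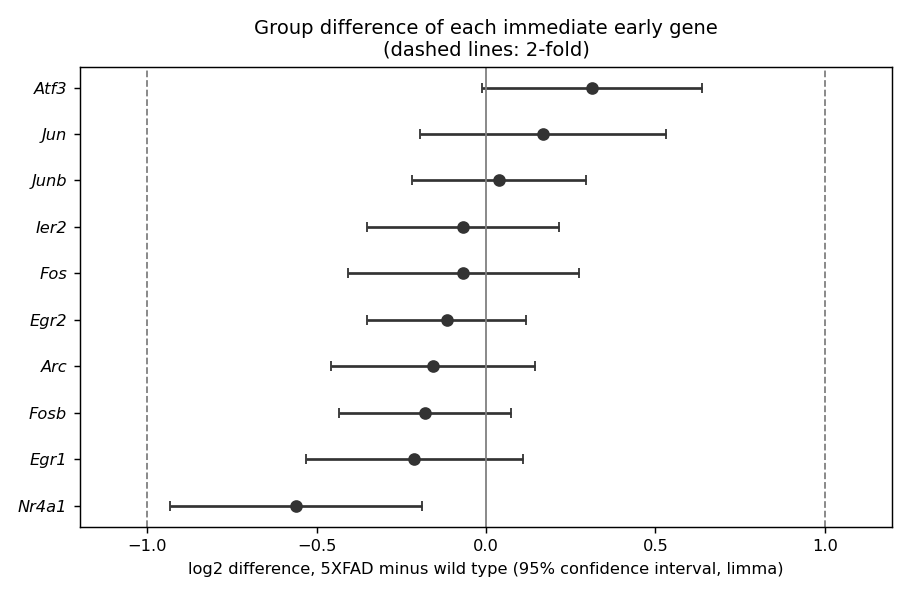
Log2 difference of each immediate early gene, 5XFAD minus wild type, as a point with its 95% confidence interval from limma, and dashed lines at a 2-fold difference. The intervals of 9 genes include 0, and that of Nr4a1 runs from -0.93 to -0.19 before any adjustment over genes.

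A pair of arrays, from opposite groups, stood at the ends of the range for several members. Wild type replicate 1 was the highest of the 6 arrays for 5 members (Fos, Egr1, Egr2, Nr4a1 and Arc), where it was the highest for 14.6% of all genes. 5XFAD replicate 2 was the lowest for 5 members (Fos, Fosb, Egr1, Nr4a1 and Arc), where it was the lowest for 17.3% of all genes. When each member was centred on its own mean over the 6 arrays, the mean of the 10 members was 0.14 in wild type replicate 1 and -0.17 in 5XFAD replicate 2. It lay between -0.062 and 0.044 in the other 4 arrays. The mean level of the members was 6.996, 6.821 and 7.038 in the 5XFAD arrays and 7.138, 6.932 and 7.038 in the wild-type arrays, so the groups overlapped.

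**Figure D3:**
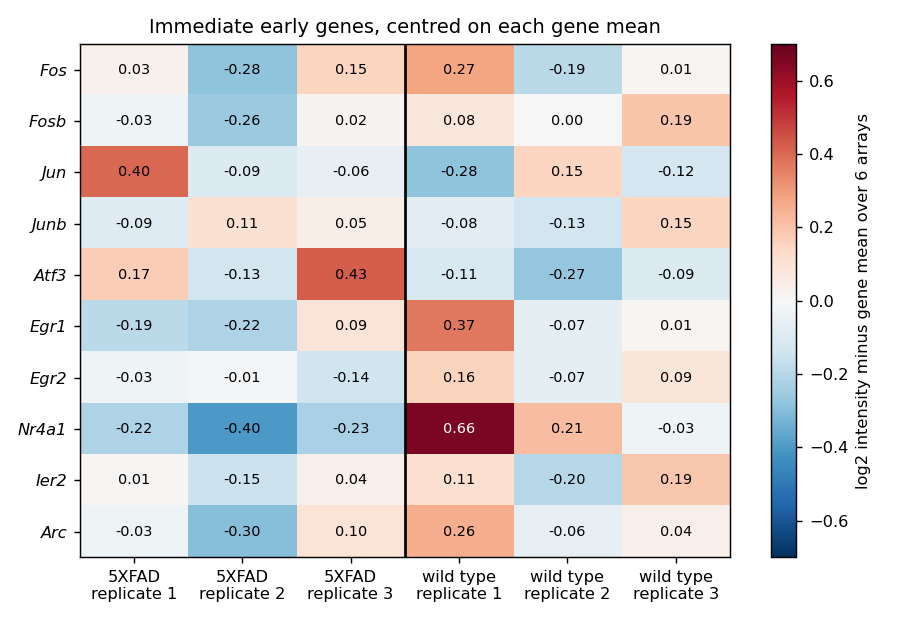
Log2 intensity minus the gene's mean over 6 arrays, for the 10 members (rows) in the 6 arrays (columns, 5XFAD left of the black line), with red above and blue below the mean. Wild type replicate 1 is high for Nr4a1 (0.66), Egr1 (0.37), Fos (0.27) and Arc (0.26) and low for Jun (-0.28), and 5XFAD replicate 2 is low for Nr4a1 (-0.40), Arc (-0.30), Fos (-0.28) and Fosb (-0.26).

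Fos, Egr1, Nr4a1 and Arc were highest in wild type replicate 1 and lowest in 5XFAD replicate 2, and the other members were not. Fosb was highest in wild type replicate 3, and Egr2 was lowest in 5XFAD replicate 3. Ier2 was highest in wild type replicate 3 and lowest in wild type replicate 2. Jun was lowest in wild type replicate 1, Junb was the only member above its mean in 5XFAD replicate 2, and Atf3 peaked in 5XFAD replicate 3. The spread within groups, as the pooled SD, was 0.26 for Nr4a1, 0.25 for Jun, 0.23 for Fos, 0.21 for Atf3, 0.20 for Egr1 and 0.10 for Egr2. Over the 10 members its median was 0.193, against 0.145 over all genes, and 7 members were above that figure.

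Marker lists of several cell types also had an extreme in these 2 arrays, in both directions. In 5XFAD replicate 2 all 8 endothelial markers had their lowest value, beside 17.3% of all genes. Their mean relative to each gene's own mean was -0.23 there and between -0.017 and 0.14 elsewhere. On the same scale RPE markers were also lowest there (-0.21), while smooth muscle and pericyte (0.35) and mast cell markers (0.30) were highest. In wild type replicate 1 the skeletal muscle markers averaged -0.90, and 7 of 10 were lowest there, beside 13.3% of all genes. They averaged -0.71 in wild type replicate 2 and 1.11 in 5XFAD replicate 1. Mast cell markers were lowest (-0.31) and photoreceptor (0.48) and fibroblast markers (0.083) highest in wild type replicate 1. Olfactory receptor genes, 1105 genes for which the outer eye wall is not a known source, averaged 0.089 in wild type replicate 1, which was the highest array for 30.9% of them. They averaged 0.025 in 5XFAD replicate 2 and -0.12 in wild type replicate 2. The part of cell composition or of array background in the order of the immediate early genes was not tested.

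Likeness to Fos was measured as the root mean square difference over the 6 arrays between values centred on each gene's mean, where the median over all genes was 0.23. Arc was the nearest member at 0.064 and ranked 11 among all other genes, followed by Egr1 (0.12, rank 288), Ier2 (0.12, rank 370) and Fosb (0.15, rank 1191). Egr2 ranked 3901, Atf3 9028, Junb 11106, Nr4a1 18100 and Jun 19855. The distance counts the size of the changes as well as their order, and a flat gene would lie at 0.19. Nr4a1, like Fos, was highest in wild type replicate 1 and lowest in 5XFAD replicate 2, but its range was 1.06 against 0.55. Jun was lowest in wild type replicate 1. The 10 nearest genes outside the family were Lrrc55, Vmn2r61, Olfr1360, Olfr243, Gm13391, Gm4271, 4930455F16Rik, 4933402E13Rik, Gm9292 and Muc13, at 0.041 to 0.064. They include 2 olfactory receptors, a vomeronasal receptor and predicted genes. The measure describes these 6 arrays only. As a landmark for dim signal, 95% of olfactory receptor genes had a mean under 5.57, and Fosb, at a mean of 5.65, stood just above it.

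The wider primary response held differences in both directions. Of 34 further immediate early and primary response genes 0 passed over all genes, and at an unadjusted p under 0.05 limma gave 2 higher and 3 lower, beside 2.89% and 3.39% of all genes. Their median difference was -0.041. Klf2, a flow-responsive factor of endothelium, gave 7.67, 7.56 and 7.70 in 5XFAD and 8.29, 7.96 and 8.06 in wild type, a difference of -0.46 ± 0.11 (limma, Benjamini-Hochberg adjusted p = 0.44). Klf4, a related barrier and vascular factor, differed by -0.37 ± 0.12, and Homer1, which encodes a postsynaptic scaffold with an activity-induced short form, by -0.36 ± 0.10. Gadd45b, a stress and growth arrest gene, gave 8.19, 7.97 and 7.77 in 5XFAD and 7.50, 7.64 and 7.47 in wild type, a difference of 0.44 ± 0.13 (limma, Benjamini-Hochberg adjusted p = 0.53). Over the list of 34 the groups did not overlap for 1 gene higher and 3 lower, these same 4, beside 4.72% and 6.62% of all genes. The 4 were named for their small p, so their lack of overlap adds no separate support. The remaining gene under an unadjusted p of 0.05 in limma was higher, and its groups overlapped. Like Nr4a1, Klf2, Klf4 and Homer1 had their highest value in wild type replicate 1, as did 10 of the 34 genes.

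Genes that shut the response off had the most negative median of the 6 pathway lists. The 11 phosphatase and Sprouty feedback genes of the ERK and MAP kinase pathways had a median difference of -0.25, with 0 past the adjusted threshold, 0 higher and 3 lower at an unadjusted p under 0.05 (limma), beside 2.89% and 3.39% of all genes. The 3 were the ERK phosphatase genes Dusp6 (-0.92 ± 0.13, limma, Benjamini-Hochberg adjusted p = 0.087) and Dusp4 (-0.57 ± 0.14, 0.43) and the receptor signalling inhibitor Spry2 (-0.41 ± 0.12, 0.56). Groups did not overlap for 5 of the 11 genes, all lower in 5XFAD, beside 6.62% of all genes. The list mean lay at 7.49 to 7.58 in the 5XFAD arrays and 7.77 to 7.90 in the wild-type arrays. The RPE markers given above moved with it, and both lists were lowest in 5XFAD replicate 2 and highest in wild type replicate 2. The part of RPE content in the feedback difference was not tested. Dusp1, itself an immediate early phosphatase gene, gave 7.99, 8.30 and 8.12 in 5XFAD and 8.96, 8.11 and 8.40 in wild type. It was the only one of the 11 genes with its highest value in wild type replicate 1, while 8 were highest in wild type replicate 2. Its difference was -0.36 ± 0.20 (limma, Benjamini-Hochberg adjusted p = 0.88).

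Upstream factors gave no gene past either threshold. Of 22 kinases and transcription factors that drive these promoters 0 passed, beside 0.0225% of all genes. At an unadjusted p under 0.05 limma gave 0 of them, beside 6.28% of all genes. Their differences ran from -0.16 to 0.17 with a median of -0.0059. Among them Elk4, an Ets partner of serum response factor, differed by -0.15 ± 0.09, the ERK kinase gene Map2k1 by -0.16 ± 0.11, and Elk3 by 0.17 ± 0.13. Srf itself differed by -0.091 ± 0.11 and Creb1 by 0.035 ± 0.09.

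Partners and inhibitors gave 3 genes under an unadjusted p of 0.05, 1 higher and 2 lower, beside 2.89% and 3.39% of all genes. Of 10 further dimer partners of AP-1 proteins 0 passed and 1 was higher at an unadjusted p under 0.05, Mafk, a small Maf protein (0.37 ± 0.11, limma, Benjamini-Hochberg adjusted p = 0.61), and the list median was 0.044. Batf2, the next by p, differed by 0.11 ± 0.11. Of 7 genes for corepressors of EGR proteins and for mRNA decay 0 passed and 2 were lower at an unadjusted p under 0.05, with a median of -0.092. The count of 2 was 1 with a replicate block, 1 without wild type replicate 2 or 3, and 0 without 5XFAD replicate 2, 5XFAD replicate 3 or wild type replicate 1. The 2 genes were the decapping enzyme gene Dcp2 (-0.28 ± 0.11, limma, Benjamini-Hochberg adjusted p = 0.73) and the deadenylase gene Cnot7 (-0.24 ± 0.10, 0.77). Nab1 and Nab2, the corepressors of EGR proteins, differed by -0.13 ± 0.10 and -0.092 ± 0.13.

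Heat shock genes, which with immediate early genes mark tissue stress during dissection, included no gene past either threshold. Of 12 measured genes 0 passed and 0 were under an unadjusted p of 0.05 in limma, beside 6.28% of all genes, with a median of -0.075. The count of higher genes under that p was 1 with a replicate block or without the dimmest 30% of genes. It was 2 without the dimmest 50%. With each array left out, 0 to 1 were higher and 0 to 1 lower. Hspe1, a mitochondrial chaperonin subunit, differed by 0.21 ± 0.09 (limma, unadjusted p = 0.052). The small heat shock gene Hspb1 differed by 0.28 ± 0.12 (limma, unadjusted p = 0.053). The inducible gene Hspa1b gave 7.37, 7.32 and 7.06 in 5XFAD and 7.61, 7.53 and 7.27 in wild type (-0.22 ± 0.13). Hspa1a spread more widely, at 7.63, 7.96 and 6.98 in 5XFAD and 7.92, 7.81 and 7.71 in wild type (-0.29 ± 0.21). Hspa1a and Hspa1b are near-identical copies, so their probe sets may share signal. The mean of the 12 genes relative to their own means was -0.066 in wild type replicate 1 and -0.0093 in 5XFAD replicate 2, the arrays that were high and low for Fos, and reached its extremes in 5XFAD replicate 3 (-0.13) and wild type replicate 2 (0.11).

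**Figure D4:**
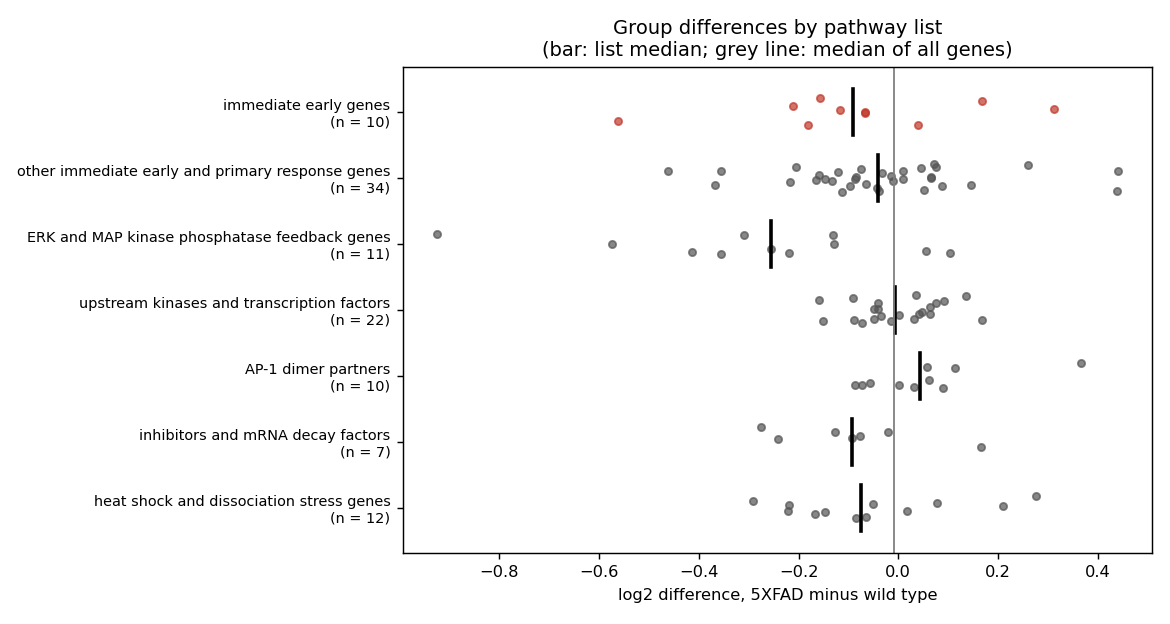
Log2 difference of every measured gene, 5XFAD minus wild type, in the immediate early family (red, n = 10) and in 6 further lists (grey), with a black bar at each list's median and a grey line at the median of all genes. The feedback list has its median at -0.25, and the medians of the other lists lie between -0.092 and 0.044.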

How the data were processed

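The values are log2 intensities per probe set, deposited by the authors. The submitters' processing notes name Affymetrix Expression Console 1.1 with RMA, a method that subtracts background, equalises the arrays' distributions and summarises probes on the log2 scale. Differences of dim genes are compressed on that scale. Any filter or pooling step is not given in the sources used here. Of 33793 probe sets, 23521 had 1 symbol in the platform annotation. The brightest probe set per gene was kept, which left 22180 genes. Groups and replicate numbers came from the sample titles. The genotypes were compared by limma 3.58.1 (R 4.3.3, lmFit then eBayes, two-sided, genotype as the only term), with Benjamini-Hochberg adjustment over all genes at a threshold of 0.05. The steps were tested on simulated data.

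The members and lists were chosen with earlier results of these data known. Named were all members, the genes of smallest unadjusted p in each pathway list and the 10 genes nearest Fos. Outside that rule, the paralogs (Fosl2, Jund, Egr3, Egr4, Nr4a2, Nr4a3), Dusp1, Srf, Creb1, Nab1, Nab2 and Hspa1a were named after their values were seen. List genes not measured as single-symbol probe sets were not analysed here. Motifs were searched in RefSeq promoter windows of GRCm38.p6. Alternatives tried were a replicate block, removal of the dimmest 30% or 50% of genes, quantile normalization, centring on medians, an eBayes prior with trend and robust settings, weighting of arrays, other handling of several probe sets, and each array left out in turn.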

Additional observations from a re-analysis of the deposited data

How the results depend on the processing

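Of the 149 values of the 10 members under 15 alternatives, 0 passed the adjusted threshold in limma. Nr4a1 stayed lower in all 15, from -0.72 to -0.37, with an unadjusted p from 0.0015 to 0.030. The sign of 3 small differences turned when single arrays were left out: Fos ran from -0.18 to 0.056, Junb from -0.018 to 0.13 and Ier2 from -0.18 to 0.011. Fosb was among the dimmest 50% of genes and has no value under that filter. Replicate numbers did not evidently pair the samples: deviations of arrays numbered 1, 2 and 3 correlated at -0.056, -0.050 and 0.13. Across numbers, 5XFAD replicate 1 with wild type replicate 2 gave 0.12, and 5XFAD replicate 2 with wild type replicate 1 gave 0.13. The remaining pairs lay between -0.081 and -0.059. A block in that other order was not tested. With the replicate block the count over all genes was 6 higher and 0 lower instead of 5 and 0. With that block Atf3 was at an unadjusted p of 0.029 (limma, Benjamini-Hochberg adjusted p = 0.66). Over the 15 alternatives the unadjusted p of Atf3 in limma ran from 0.0079 to 0.22 and was under 0.05 in 3. Its Benjamini-Hochberg adjusted p in limma ran from 0.66 to 0.99. Over all genes the count was 9 higher with median centring and 3 to 19 higher with each array left out (3 without wild type replicate 3, 19 without wild type replicate 2). Lower genes numbered 2 without the dimmest 30% or 50%, 3 with a trended and robust prior, 1 with quantile normalization, array weights or the mean of probe sets, and 0 to 1 with each array left out. The median of the further primary response genes was -0.062 with quantile normalization and ran from -0.049 to -0.017 with each array left out, and that of the feedback genes from -0.33 to -0.18. The cause of these shifts was not tested. Signal near background limits Fosb, Egr3, Egr4 and Homer1, whose differences may be compressed.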
